A study of Homo sapiens with 12 samples.

Results

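The enzymes that break down tryptophan and kynurenine were examined in the human colon adenocarcinoma cell line DLD1 by the read counts of 10 named genes (IDO1, TDO2, IL4I1, AFMID, KMO, KYNU, AADAT, HAAO, QPRT and MAOA) of 26485 gene symbols counted. All 10 symbols were found in the count files. Cells were exposed for 1 h to 10 µM TCDD (a dioxin and strong agonist of the aryl hydrocarbon receptor, AHR), 10 µM kynurenine (a tryptophan metabolite described as an endogenous AHR ligand), 10 µM CH223191 (a synthetic AHR antagonist) or DMSO, the vehicle. Each of the 4 groups had 3 libraries of poly(A) RNA, 12 in all, with 21397703 to 28247146 reads counted on genes per library. Nothing in the labels tells if replicate libraries were grown as separate cultures. The p-values therefore measure only the spread between these libraries, which may be technical.

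Most dietary tryptophan that is not built into protein is oxidised along the kynurenine pathway. IDO1 or TDO2 opens the indole ring to give N-formylkynurenine, which the formamidase AFMID turns into kynurenine. Kynurenine then goes to kynurenic acid through aminotransferases such as AADAT, or to 3-hydroxykynurenine through KMO, from which KYNU, HAAO and QPRT lead on to the NAD precursor nicotinic acid mononucleotide. IL4I1 oxidises tryptophan to indole-3-pyruvate, and MAOA oxidises amines derived from tryptophan, among them serotonin and tryptamine. IDO1 is an interferon-inducible enzyme of immune and tumour cells, TDO2 is the liver's enzyme for the same step, and kynurenine made by either is known as a ligand of AHR.

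Of the 10 genes, 3 were expressed at 1 CPM or more on average over the 12 libraries (CPM, reads scaled to the library total after TMM scaling). These were QPRT (63.6 CPM), AFMID (10.3 CPM) and AADAT (9.80 CPM). Another 5 lay from 0.1 to 1 CPM, namely IL4I1 (0.864 CPM), KYNU (0.858 CPM), MAOA (0.578 CPM), TDO2 (0.573 CPM) and KMO (0.573 CPM), on 176 to 269 reads each over all libraries. HAAO had 29 reads and IDO1 had 1 read in the 12 libraries together. Thus 8 genes had enough reads to be tested, while HAAO and IDO1 did not pass the low-count filter.

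**Figure D1:**
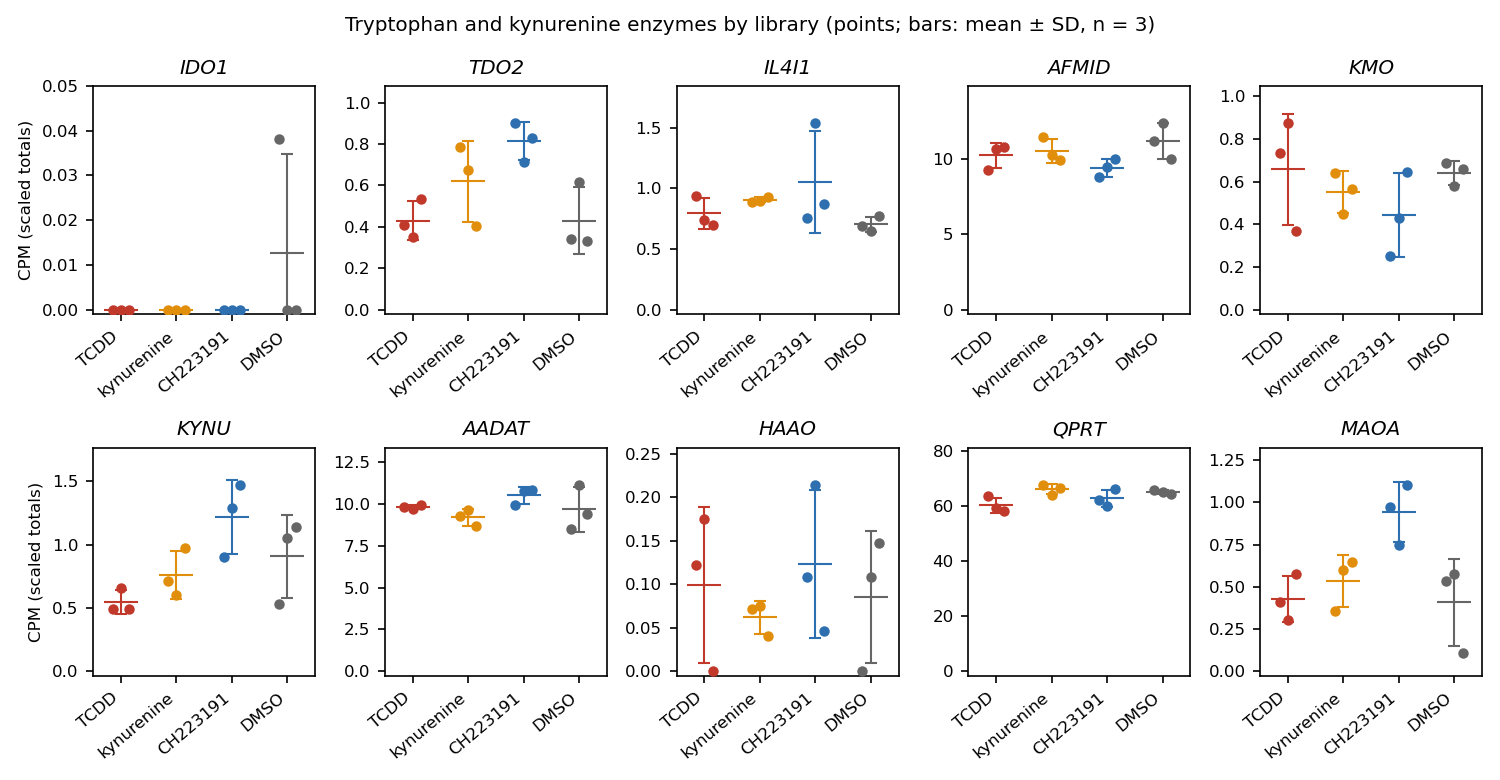
CPM of the 10 enzymes in each library (points), with the mean and SD of the 3 libraries of each group (bars), each gene on its own axis starting at 0. QPRT, AFMID and AADAT were well above 1 CPM in every library, and IDO1 had a read in 1 DMSO library only. Without overlap, TDO2 and MAOA were higher and AFMID lower in the CH223191 libraries than in the DMSO libraries. The share of all genes without overlap was not computed.

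Levels of different genes were compared per kilobase in the DMSO libraries, using the canonical transcript of each gene. QPRT had 29.6 ± 0.373 RPKM (CPM per kilobase; SD, n = 3) and ranked 2592 of 23161 genes with a length. AFMID followed with 6.64 ± 0.696 RPKM (rank 6839) and AADAT with 4.30 ± 0.595 RPKM (rank 7965). The 3 genes did not overlap in RPKM, at 29.3 to 30.0 for QPRT, 5.94 to 7.34 for AFMID and 3.78 to 4.95 for AADAT. IL4I1 (0.392 ± 0.0343 RPKM), TDO2 (0.253 ± 0.0945 RPKM) and KMO (0.128 ± 0.0112 RPKM) came next. MAOA (0.104 ± 0.0658 RPKM), HAAO (0.0678 ± 0.0606 RPKM) and KYNU (0.0599 ± 0.0215 RPKM) overlapped between libraries and have no order among them, and KMO overlapped MAOA and HAAO. IDO1 had the lowest mean at 0.00688 RPKM, from its single read, and its libraries overlapped those of HAAO. The place of KYNU rests on the length used, since its canonical transcript has 15151 bases and the median of its 7 coding transcripts has 802 bases, which would give 1.13 ± 0.407 RPKM.

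**Figure D2:**
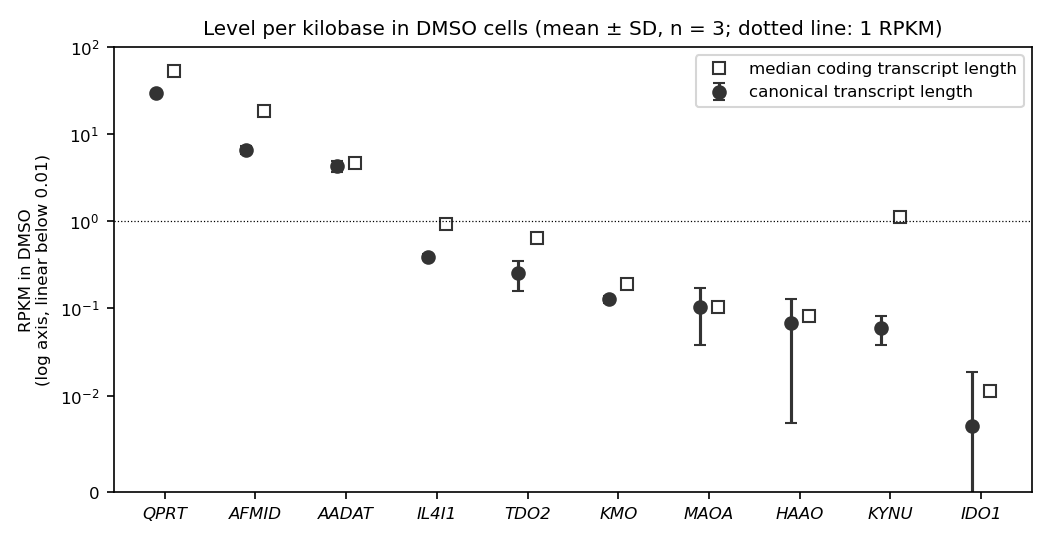
Level of each enzyme in DMSO cells in RPKM, on a log axis that is linear below 0.01. Filled points give the mean with SD (n = 3) for the canonical transcript length and open squares the mean for the median coding transcript length. QPRT, AFMID and AADAT lay above 1 RPKM with either length, and KYNU moved most between the lengths.

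IDO1 had the fewest reads of the 10 genes. It lies on chromosome 8 (39902275 to 39928790, hg38, plus strand) and had 0 reads in all TCDD, kynurenine and CH223191 libraries and 1, 0 and 0 reads in the DMSO libraries. A count of 0 allows up to 3 reads per library, or 0.106 to 0.140 CPM at these depths, for counting error only, so no fold was formed. IDO2, the paralog of IDO1, had 0 reads in the 12 libraries. Genes that carry the interferon signal to IDO1 were read well in DMSO cells, with 278 ± 10.2 CPM for the receptor chain IFNGR1, 166 ± 5.28 CPM for the kinase JAK1 and 21.7 ± 1.47 CPM for the transcription factor IRF1 (SD, n = 3).

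TDO2, on chromosome 4 (155854738 to 155920406, plus strand), had 0.407, 0.349 and 0.534 CPM with TCDD, 0.784, 0.673 and 0.404 CPM with kynurenine, 0.900, 0.714 and 0.828 CPM with CH223191, and 0.343, 0.615 and 0.330 CPM in DMSO. The CH223191 libraries all lay above the DMSO and the TCDD libraries, and the kynurenine libraries overlapped both neighbours. TDO2 rose with CH223191 on 63 reads against 35 reads in DMSO (log2 fold change 0.91 ± 0.329 SE, adjusted p = 0.0321, edgeR's quasi-likelihood test with Benjamini-Hochberg adjustment over all genes, as for every p below). The call ended without CH223191 replicate 1 (adjusted p = 0.109) or replicate 3 (0.065), without DMSO replicate 1 (0.116) or replicate 3 (0.129), and with DESeq2 (0.0831). With kynurenine the value was 0.54 ± 0.346 (adjusted p = 0.867) and with TCDD 0.00 ± 0.385 (adjusted p = 0.999). In these bulk libraries a change in the share of expressing cells and a change in RNA per cell cannot be told apart. Of 8 hepatocyte markers, 0 reached 1 CPM, albumin (ALB) had 10 reads in all and APOA2 none, and their sum was 0.0720 to 0.250 CPM with CH223191 and 0.0381 to 0.217 CPM in DMSO.

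IL4I1, on chromosome 19 (49889654 to 49929539, minus strand), had 0.936, 0.742 and 0.699 CPM with TCDD, 0.891, 0.897 and 0.929 CPM with kynurenine, 0.756, 1.53 and 0.874 CPM with CH223191, and 0.687, 0.651 and 0.771 CPM in DMSO. The kynurenine libraries lay above the DMSO libraries, while the highest value of all, in CH223191 replicate 2, stood apart from the other CH223191 libraries, which reached down into the DMSO range. No comparison passed the test. The log2 fold change was 0.17 ± 0.300 with TCDD (adjusted p = 0.779), 0.36 ± 0.285 with kynurenine (0.901) and 0.60 ± 0.277 with CH223191 (0.0949). Without CH223191 replicate 1 the CH223191 value was 0.81 (0.0359), and over all fits with a library left out it ranged from 0.20 to 0.81. In GENCODE 44, IL4I1 shares 336 exon bases with NUP62 on the same strand and 75 with ATF5 on the other, and whether counting used strand is not given in the sources used here.

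AFMID, which releases kynurenine from its formyl precursor, lies on chromosome 17 (78187358 to 78207702, plus strand). It had 9.28, 10.6 and 10.8 CPM with TCDD, 11.4, 10.3 and 9.90 CPM with kynurenine, 8.78, 9.49 and 9.98 CPM with CH223191, and 11.2, 12.4 and 10.0 CPM in DMSO. The CH223191 libraries lay just under the DMSO libraries without overlap, while TCDD and kynurenine libraries overlapped those of DMSO. AFMID fell with CH223191 to 9.42 ± 0.604 CPM, against 11.2 ± 1.17 CPM in DMSO (SD, n = 3). Its log2 fold change was -0.25 ± 0.0905 (SE) at an adjusted p of 0.0298. The call ended without DMSO replicate 1 (0.0516) or replicate 2 (0.187), without CH223191 replicate 1 (0.142) or replicate 2 (0.0688), with library totals alone (0.0546) and with DESeq2 (0.058). With TCDD its log2 fold change was -0.13 ± 0.0903 (adjusted p = 0.396) and with kynurenine -0.08 ± 0.0884 (0.934).

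KMO, the hydroxylase that sends kynurenine towards NAD, lies on chromosome 1 (241532134 to 241595642, plus strand). It had 18, 20 and 9 reads with TCDD, 18, 12 and 14 reads with kynurenine, 7, 12 and 14 reads with CH223191, and 18, 16 and 18 reads in DMSO. All groups overlapped in CPM except that the CH223191 range, 0.252 to 0.644 CPM, only partly covered the DMSO range of 0.579 to 0.687 CPM. No comparison passed, with log2 fold changes of 0.03 ± 0.333 for TCDD (adjusted p = 0.969), -0.21 ± 0.338 for kynurenine (0.960) and -0.58 ± 0.360 for CH223191 (0.222). The CH223191 value was -0.29 without CH223191 replicate 1 and -0.90 without CH223191 replicate 3, and the kynurenine value -0.34 without kynurenine replicate 1 and -0.08 without kynurenine replicate 2. KMO shares 1691 exon bases with OPN3 on the opposite strand in GENCODE 44.

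KYNU, kynureninase, which cleaves kynurenine and 3-hydroxykynurenine, lies on chromosome 2 (142877657 to 143055833, plus strand). It had 0.488, 0.655 and 0.493 CPM with TCDD, 0.713, 0.598 and 0.970 CPM with kynurenine, 0.900, 1.29 and 1.47 CPM with CH223191, and 0.534, 1.05 and 1.14 CPM in DMSO. TCDD and CH223191 libraries lay at opposite ends without overlap, and the DMSO libraries spread across both. KYNU was lower with TCDD than with CH223191, at 0.545 ± 0.0946 CPM with TCDD and 1.22 ± 0.292 CPM with CH223191 (SD, n = 3). The log2 fold change was -1.14 ± 0.308 (SE) at an adjusted p of 0.00359. This call held in all 12 fits with a library left out (highest adjusted p 0.0223) and with DESeq2 (range over the other settings 0.000801 to 0.00888). Neither arm passed against DMSO, at -0.74 ± 0.323 for TCDD (adjusted p = 0.141) and 0.40 ± 0.268 for CH223191 (0.267). The CH223191 value was 0.14 without DMSO replicate 1 and up to 0.59 without DMSO replicate 3. With kynurenine KYNU was at -0.27 ± 0.293 relative to DMSO (0.934), ranging from -0.53 without DMSO replicate 1 to -0.08 without DMSO replicate 3, and at -0.67 ± 0.280 relative to CH223191 (0.063). The difference from CH223191 passed without kynurenine replicate 3 (0.0397) or CH223191 replicate 1 (0.0311).

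AADAT, the aminotransferase that makes kynurenic acid, lies on chromosome 4 (170060222 to 170091699, minus strand). It had 9.81, 9.69 and 9.91 CPM with TCDD, 9.30, 9.65 and 8.65 CPM with kynurenine, 9.93, 10.8 and 10.8 CPM with CH223191, and 8.51, 11.1 and 9.40 CPM in DMSO. The DMSO libraries spanned the values of all others. Within that span the kynurenine libraries lay lowest, then those of TCDD and then of CH223191, without overlap. No pair of compounds passed, and the largest difference was kynurenine against CH223191 (log2 fold change -0.19 ± 0.0906, adjusted p = 0.108). The log2 fold change was 0.02 ± 0.0916 with TCDD (adjusted p = 0.940), -0.07 ± 0.0910 with kynurenine (0.940) and 0.11 ± 0.0896 with CH223191 (0.349). The 95% interval with kynurenine ran from a fold of 0.836 to 1.08, for this gene alone and without adjustment.

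HAAO, which opens the ring of 3-hydroxyanthranilate, lies on chromosome 2 (42767089 to 42792593, minus strand). It had 3, 4 and 0 reads with TCDD, 2, 2 and 1 with kynurenine, 3, 6 and 1 with CH223191, and 0, 3 and 4 in DMSO. Nearly all of these counts were near the 3 reads that a count of 0 allows, so no difference was detectable at this depth.

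QPRT, which forms nicotinic acid mononucleotide from quinolinic acid, lies on chromosome 16 (29663279 to 29698699, plus strand) and was by far the most read of the 10. It had 63.5, 59.2 and 58.3 CPM with TCDD, 67.8, 64.1 and 66.8 CPM with kynurenine, 62.1, 60.1 and 66.2 CPM with CH223191, and 66.0, 65.3 and 64.4 CPM in DMSO. The TCDD libraries lay below those of kynurenine and of DMSO without overlap, and the kynurenine and DMSO libraries overlapped. The log2 fold change with TCDD was -0.11 ± 0.0443 (adjusted p = 0.102) and did not pass. With kynurenine it was 0.02 ± 0.0435 (0.969), with a 95% interval of 0.955 to 1.08-fold, and with CH223191 -0.06 ± 0.0439 (0.342). Between TCDD and kynurenine the value was -0.13 ± 0.0444 at an adjusted p of 0.0518. It passed with RLE factors (0.0498), with no low-count filter (0.0381), and without TCDD replicate 1 (0.025), kynurenine replicate 2 (0.0393) or CH223191 replicate 3 (0.0424), and over all alternatives ranged up to 0.241.

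MAOA, monoamine oxidase A, lies on chromosome X (43654907 to 43746817, plus strand). It had 10, 7 and 14 reads with TCDD, 10, 16 and 16 with kynurenine, 27, 21 and 24 with CH223191, and 14, 16 and 3 in DMSO. In CPM this was 0.407, 0.306 and 0.575 with TCDD, 0.356, 0.598 and 0.646 with kynurenine, 0.972, 0.750 and 1.10 with CH223191, and 0.534, 0.579 and 0.110 in DMSO. Every CH223191 library lay above every other library, and DMSO replicate 3 was the lowest of the 12. MAOA rose with CH223191 to 0.942 ± 0.179 CPM, against 0.408 ± 0.259 CPM in DMSO (SD, n = 3). The log2 fold change was 1.18 ± 0.359 (SE; 95% interval 0.45 to 1.91, adjusted p = 0.0104). Without DMSO replicate 3 the value was 0.74 and did not pass (adjusted p = 0.108), and the other 11 fits with a library left out kept the call. With TCDD the log2 fold change was 0.08 ± 0.432 (0.934) and with kynurenine 0.37 ± 0.403 (0.934). MAOB, the paralog that also oxidises amines, had 16.6 ± 1.28 CPM with CH223191 and 15.8 ± 1.15 CPM in DMSO (SD, n = 3; log2 fold change 0.08, adjusted p = 0.439).

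The promoters of the 4 genes called in any pair of groups are shown because AHR binds DNA with its partner ARNT at sites with the core GCGTG. Each is the stretch of 250 bases before the annotated start (RefSeq, GRCh38.p14), 5′ to 3′ on the gene's strand, with GCGTG or its reverse complement CACGC in capitals. AFMID is chr17:78187112-78187361, plus strand, MAOA chrX:43656049-43656298, plus strand, KYNU chr2:142877414-142877663, plus strand and TDO2 chr4:155903446-155903695, plus strand.
AFMID: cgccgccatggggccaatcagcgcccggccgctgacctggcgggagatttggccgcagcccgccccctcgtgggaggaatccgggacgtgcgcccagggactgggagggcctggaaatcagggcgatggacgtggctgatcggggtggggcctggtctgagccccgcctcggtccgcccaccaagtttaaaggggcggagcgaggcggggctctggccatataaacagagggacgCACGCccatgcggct
MAOA: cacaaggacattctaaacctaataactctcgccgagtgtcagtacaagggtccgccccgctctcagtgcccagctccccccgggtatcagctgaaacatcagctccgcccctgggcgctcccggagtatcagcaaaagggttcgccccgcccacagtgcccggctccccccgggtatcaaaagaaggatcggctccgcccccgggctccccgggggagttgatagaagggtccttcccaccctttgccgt
KYNU: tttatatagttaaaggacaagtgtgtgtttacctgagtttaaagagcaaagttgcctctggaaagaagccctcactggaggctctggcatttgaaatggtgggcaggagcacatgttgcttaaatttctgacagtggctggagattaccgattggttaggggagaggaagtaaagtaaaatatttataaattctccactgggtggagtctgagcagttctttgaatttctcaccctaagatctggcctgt
TDO2: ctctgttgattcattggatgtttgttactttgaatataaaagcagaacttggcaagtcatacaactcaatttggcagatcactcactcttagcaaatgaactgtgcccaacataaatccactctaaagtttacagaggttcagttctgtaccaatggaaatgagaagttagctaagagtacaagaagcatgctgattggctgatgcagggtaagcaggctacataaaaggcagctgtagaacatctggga
In AFMID the match began at base -15 from the start. MAOA held none before the start and 1 at base 28 after it, in the stretch chrX:43656316-43656340, plus strand, which reads as follows.
MAOA after start: cgacccaggaGCGTGtcagccaaag
Windows of 300 bases (250 before and 50 after the start) were in the table for 9 of the 10 genes, 12 windows in all because AADAT and QPRT have several starts. The core was in 4 windows, of AFMID, IL4I1, AADAT and MAOA, and in 36.5% of all 35116 windows. The longer form TNGCGTG, in either direction, was in 0 of the 12 windows and in 5.51% of all. A match describes letters only and does not show binding. The window of CYP1A1 held 1 core, at base -57, and like the 12 windows it did not hold the longer form.

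TCDD was compared with DMSO to ask whether strong AHR activation changes these enzymes within 1 h. None of the 8 tested genes passed with TCDD by edgeR, against 11.7% of all 13619 genes tested (5.91% higher and 5.83% lower) and 1.59% of tested genes under 1 CPM. At an unadjusted p under 0.05 there were 2, KYNU (-0.74) and QPRT (-0.11), and DESeq2 called 0 of the 3 for which it gave an adjusted p. The share of all genes at that unadjusted threshold was not computed. The median log2 fold change of the 8 genes was 0.0085, against 0.00084 for all genes tested. The same cells responded to TCDD in CYP1A1, the monooxygenase that is the classical AHR target (7.05 ± 0.0634 SE, adjusted p = 5.46e-42), and 9 of 11 listed AHR response genes rose and 0 fell. For the low genes small effects were not detectable, since the 95% interval of the TCDD value ran from -0.78 to 0.78 for TDO2 and from -0.79 to 0.96 for MAOA.

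Kynurenine was compared with DMSO to ask whether the pathway's own product changes the enzymes that make or remove it. None of the 8 passed by edgeR (0 at an unadjusted p under 0.05, and 0 by DESeq2), against 0.294% of all genes tested (0.154% higher and 0.140% lower) and 0.0664% of tested genes under 1 CPM. The well-read genes were bounded closely, with 95% intervals of 0.955 to 1.08-fold for QPRT, 0.833 to 1.07-fold for AFMID and 0.836 to 1.08-fold for AADAT. For the 5 genes under 1 CPM the upper bounds ran from 1.25-fold for KYNU to 2.36-fold for TDO2 and the lower bounds from 0.537-fold for KMO to 0.891-fold for TDO2. The median of the 8 log2 fold changes was -0.03, against -0.0030 for all genes. Of the 11 listed AHR response genes 5 rose and 2 fell with kynurenine in the same fit. CYP1A1 rose (1.65 ± 0.101 SE, adjusted p = 8.95e-14), while CYP1B1 (-0.37, adjusted p = 2.44e-07) and TIPARP (-0.21, adjusted p = 0.0271) fell.

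CH223191 was compared with DMSO to ask what the antagonist does to the enzymes. With it TDO2 and MAOA rose and AFMID fell, 3 of 8 tested genes, against 32.8% of all genes tested, so the share is near that of all genes. Higher calls made up 15.9% and lower calls 16.9% of all genes. Among tested genes under 1 CPM, where TDO2 and MAOA lie, 7.43% were called. The median log2 fold change of the 8 was 0.26, against 0.00097 for all genes. In the same fit 2 of the 11 listed AHR response genes rose (NQO1, 0.29, and ARNT, 0.15) and 5 fell. Those that fell were CYP1A1 (-2.67), AHRR (-1.34), CYP1B1 (-1.33), ALDH1A3 (-0.78) and TIPARP (-0.40). The comparisons against DMSO share their DMSO libraries, so their values are given side by side and not as separate evidence.

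**Figure D3:**
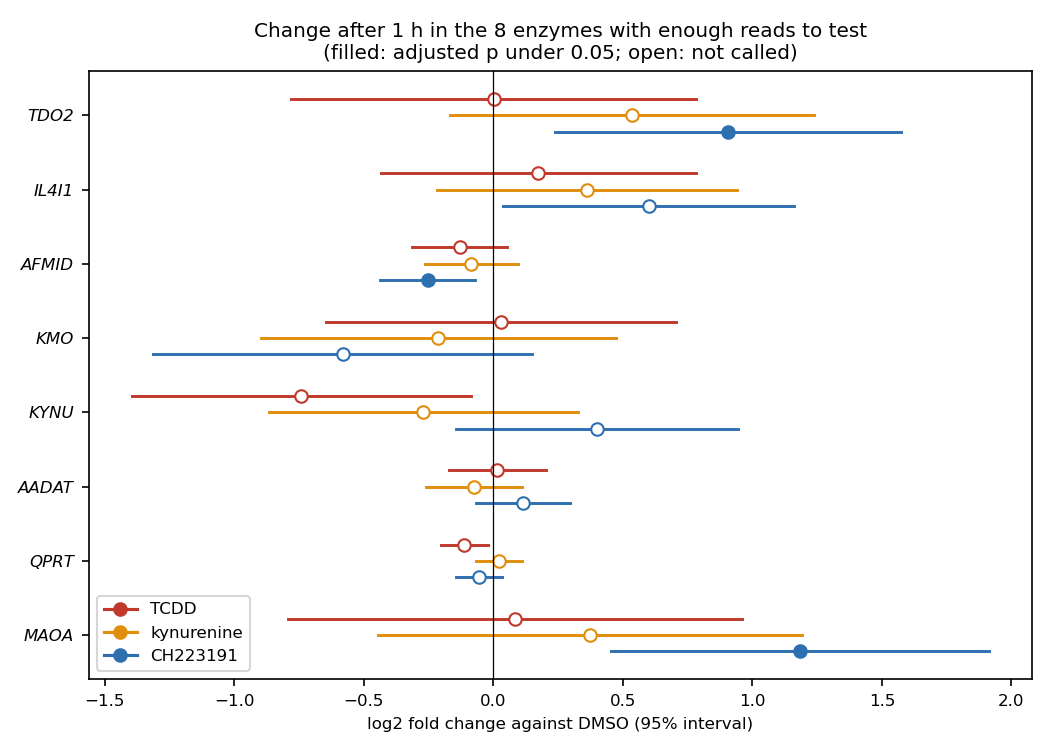
Log2 fold change against DMSO of the 8 tested enzymes with TCDD, kynurenine and CH223191, with 95% intervals (horizontal lines); filled points passed at an adjusted p under 0.05. Filled points stand only for TDO2, AFMID and MAOA with CH223191, and the intervals of QPRT, AADAT and AFMID are far narrower than those of the genes under 1 CPM.

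The 3 pairs of compounds were also compared at the same dose and time. Between TCDD and CH223191, KYNU (-1.14), MAOA (-1.10) and TDO2 (-0.91) were lower with TCDD, 3 of 8, against 37.1% of all genes tested called, 19.0% higher and 18.1% lower, and 11.1% of those under 1 CPM. MAOA had 0.429 ± 0.136 CPM with TCDD and 0.942 ± 0.179 CPM with CH223191 (SD, n = 3; adjusted p = 0.0169). Its call ended without TCDD replicate 1 (0.0548) or replicate 2 (0.0791) and without CH223191 replicate 1 (0.0504) or replicate 3 (0.062). TDO2 had 0.430 ± 0.0947 CPM with TCDD and 0.814 ± 0.0938 CPM with CH223191 (adjusted p = 0.0342), and its call ended without TCDD replicate 1 (0.0905) or replicate 2 (0.112), without CH223191 replicate 1 (0.109) or replicate 3 (0.0659), and with DESeq2 (0.0864). Between kynurenine and CH223191, 0 of 8 passed by edgeR, against 33.0% of all genes (16.6% higher and 16.4% lower) and 7.56% of those under 1 CPM. DESeq2 also called 0. At an unadjusted p under 0.05 there were 3 (KYNU, MAOA and AADAT), a threshold at which the share of all genes was not computed. MAOA was nearest by size at -0.81 ± 0.341 (adjusted p = 0.0644), and it passed without DMSO replicate 3 (0.0407) and when only the 6 libraries compared were fitted (0.0416). Between TCDD and kynurenine, 0 of 8 passed by edgeR, against 9.19% of all genes (5.10% higher and 4.09% lower) and 1.33% of those under 1 CPM. Only 1 (QPRT) had an unadjusted p under 0.05, and DESeq2 called 0 of the 3 genes it gave an adjusted p. A joint test over the 4 groups called KYNU (adjusted p = 0.0177) and MAOA (0.0197), 2 of 8, against 43.6% of all genes and 10.2% of those under 1 CPM. The joint call of KYNU ended without TCDD replicate 1 (0.0557) or 3 (0.0528) or CH223191 replicate 2 (0.0695) or 3 (0.0788), and that of MAOA without CH223191 replicate 1 (0.0916) or 3 (0.108).

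Over the 12 libraries, the genes of at least 1 CPM whose log2 CPM followed KYNU most closely were ARHGAP23 (Pearson r = 0.92), PYGL (0.90) and GSDMD (0.90), of 12112 compared. Those closest to MAOA were JADE1 (0.94), ZNF805 (0.91) and PIGX (0.89). These values are a description over 12 libraries of 4 groups, and correlation within groups was not tested. They are the highest of 12112 for each gene, and how high such values run by chance was not tested. KYNU had 12 to 36 and MAOA 3 to 27 reads per library.

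Of 24 other enzymes linked to tryptophan, 15 were tested. With TCDD 1 rose (ALDH3A2, 0.21) and 1 fell (ECHS1, -0.14), with kynurenine 0 passed by edgeR (1 at an unadjusted p under 0.05), and with CH223191 5 rose and 1 fell. The counts of called genes in this list and in the NAD, transporter and interferon lists stand against shares of all genes tested. These were 11.7% called for TCDD, 0.294% for kynurenine and 32.8% for CH223191. Counts at an unadjusted p have no such share beside them. Those that rose with CH223191 were WARS, the tryptophanyl-tRNA synthetase (0.46), ALDH2 (0.31) and ALDH9A1 (0.18), both aldehyde dehydrogenases, KYAT3, a kynurenine aminotransferase counted as CCBL2 (0.23), and ACAT1 (0.12). OGDH, of the citric acid cycle, fell (-0.26). The median of the 15 was 0.08 with CH223191. Among the kynurenine aminotransferases KYAT3 had 55.4 ± 0.403 CPM with CH223191 and 47.1 ± 2.71 CPM in DMSO (SD, n = 3), without overlap. IDO2, TPH2, ASMT and INMT had 0 reads in the 12 libraries, while TPH1, which starts serotonin synthesis, had 40, DDC 49 and ACMSD 9.

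Of 14 genes of NAD synthesis, into which QPRT feeds, 10 were tested. With TCDD 1 rose (NNT, 0.16) and 2 fell (NADK2, -0.20, and NAPRT, -0.18), with kynurenine 0 passed by edgeR (3 at an unadjusted p under 0.05), and with CH223191 NMNAT3 rose (0.35) and 0 fell. NAMPT, the main enzyme of NAD salvage, had 224 ± 6.32 CPM with CH223191 and 213 ± 4.34 CPM in DMSO (SD, n = 3; log2 fold change 0.07, adjusted p = 0.113). Of 13 transporters of tryptophan, kynurenine and related amino acids, 10 were tested. With TCDD 3 rose and 1 fell, with kynurenine 0 passed by edgeR (2 at an unadjusted p under 0.05), and with CH223191 5 rose and 2 fell. SLC7A5, the large neutral amino acid transporter that also carries kynurenine, had 1640 ± 96.6 CPM with CH223191 and 1332 ± 42.4 CPM in DMSO (SD, n = 3; 0.30, adjusted p = 2.75e-08). SLC7A11, which exchanges cystine for glutamate, rose with CH223191 by 1.52 and SLC43A1 by 1.03 on the log2 scale, as did SLC6A14 (0.68) and SLC1A5 (0.49). The amino acid transporters SLC16A10 (-0.38, adjusted p = 0.00183) and SLC7A8 (-0.29, adjusted p = 3.71e-08) fell with CH223191. Of 20 genes of interferon signalling and IDO1 control, 18 were tested, and 1 rose and 2 fell with TCDD, 0 passed with kynurenine by edgeR (4 at an unadjusted p under 0.05), and 2 rose and 2 fell with CH223191.

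**Figure D4:**
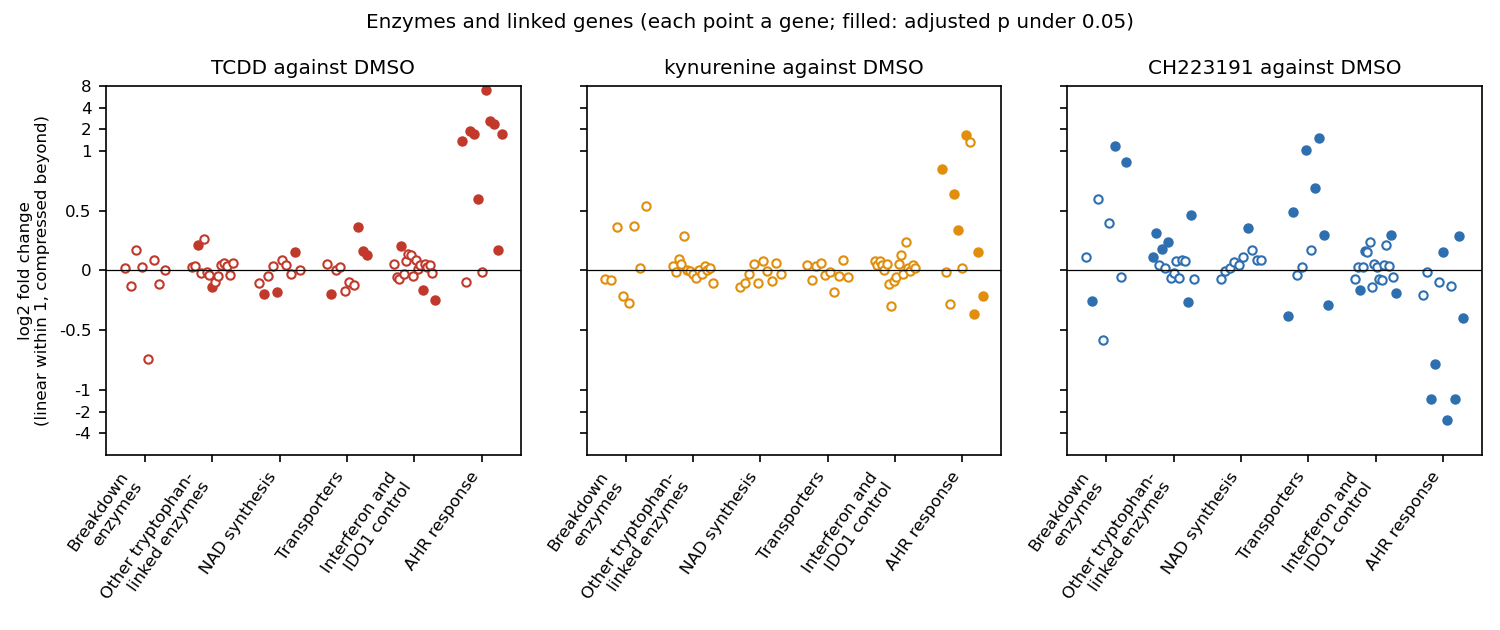
Log2 fold change against DMSO of each tested gene (points, filled where the adjusted p was under 0.05) in the breakdown enzymes and 5 lists of linked genes, on an axis that is linear within 1 and compressed beyond. With kynurenine, filled points appear among the AHR response genes and in none of the other 5 lists shown; with CH223191 they appear in all 6.

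The label of the cells was checked by markers. Of 10 colon epithelium markers, 9 had at least 1 CPM, led by KRT8 (4642 CPM) and with CDX1 at 0.0476 CPM. Among myeloid markers, which matter here because macrophages express several of these enzymes, 3 of 10 had at least 1 CPM (LYZ, CD68 and CD14), PTPRC, the pan-leukocyte gene, had 0.449 CPM, and the sum of the 10 was 10.8 to 17.1 CPM with TCDD, 8.16 to 18.2 CPM with kynurenine, 8.78 to 14.8 CPM with CH223191 and 10.7 to 18.6 CPM in DMSO. With CH223191, 1 of the 7 tested myeloid markers rose (CSF1R, a macrophage receptor gene, 0.85, adjusted p = 0.02) and 0 fell. This stands against 32.8% of all genes tested called (15.9% higher and 16.9% lower). Among tested genes under 1 CPM, where CSF1R lies (0.664 CPM), 7.43% were called. The median of the 7 log2 fold changes was -0.17, with -0.69 for ITGAM (adjusted p = 0.108), -0.62 for LYZ (0.159) and -0.38 for PTPRC (0.504). The part of such cells in the enzymes' values was not tested. Of fibroblast markers 0 of 8 and of endothelial markers 1 of 7 reached 1 CPM.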

How the data were processed

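Poly(A) RNA of DLD1 cells was sequenced in 4 groups of 3 libraries. The authors deposited 1 raw count for each gene symbol and library, made with Trim Galore, STAR 2.7.2b on hg38, SAMtools 1.9 and HTSeq, per the submitters' processing notes. The protocol in the labels names another STAR version and does not mention CH223191. Reads in no gene (6.59 to 8.48%) and in more than 1 gene (2.47 to 2.56%) were left out. The test was edgeR 4.0.16 in R 4.3.3: filterByExpr (minimum count 10), which kept 13619 genes, TMM factors (0.988 to 1.02), a quasi-likelihood fit of all 12 libraries with a term for each group, and Benjamini-Hochberg adjustment per comparison, with a call at an adjusted p under 0.05. A gene read mainly in the group where it is high can pass this filter through that group.

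SE is the log2 fold change divided by the square root of F. Overlap of libraries between groups is described only, and how many of all genes lack overlap was not computed. Coordinates and lengths come from GENCODE 44 (hg38), with 23161 symbols matched. Libraries of a group differed by 1.76 to 4.64 times Poisson variance, so none was a plain copy or resampling of another's reads. This ratio cannot tell repeat preparations of the same culture from separate cultures. The procedure was tested on simulated data with the same dispersion for all genes. Changes were planted only in genes of at least 1 CPM, so their recovery in lower genes was not tested. The 10 genes and the lists were chosen with earlier results of these data known. All 10 are named, from each list called genes and a few others, and the 3 genes of highest r for members called jointly. MAOB and untested list genes were named after their values were seen. Alternatives were RLE factors, library totals, other filters, a replicate block, DESeq2 1.42.0, pairs alone and each library left out. No flag for a sample apart could be tested in groups of 3.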

Additional observations from a re-analysis of the deposited data

How the results depend on the processing

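No enzyme passed against DMSO with TCDD or with kynurenine in any alternative run. Only 3 of the 8 genes remained under a filter of at least 5 CPM in 3 libraries, which left 1 call with CH223191, 0 between TCDD and CH223191 and 0 in the joint test. Over all genes that filter gave 4161, 4585 and 5479 calls, against 4470, 5052 and 5932 in the fit reported. A filter changes how many genes are tested, so counts under different filters are not shares of the same total. DESeq2 left 1 call with CH223191 (MAOA), against 3801 over all genes. QPRT gave 1 call between TCDD and kynurenine with RLE factors and 1 with no low-count filter, and MAOA 1 between kynurenine and CH223191 in the fit of the pair alone. Over all genes those fits gave 1264, 1380 and 4493 calls. With a library left out, the calls ranged from 1 to 3 with CH223191 against DMSO and from 1 to 3 between TCDD and CH223191. They ranged from 0 to 1 between kynurenine and CH223191, from 0 to 1 between TCDD and kynurenine, and from 1 to 3 in the joint test. Over all genes the calls in the same fits ranged from 3510 to 4743 with CH223191 against DMSO and from 4125 to 5318 between TCDD and CH223191. They ranged from 3577 to 4559 between kynurenine and CH223191, from 576 to 1323 between TCDD and kynurenine, and from 4790 to 6104 in the joint test. The cause was not tested. With a replicate block the counts were 3 with CH223191 and 3 between TCDD and CH223191, as without it. Over all genes that fit gave 4366 and 4948 calls. Same-numbered libraries did not deviate together (correlations -0.055 to 0.037 in 18 pairs), and 1 of 12 libraries was closest to its own number. Expressed genes numbered 3 at 1 CPM, 8 at 0.5 CPM, and 5 at 1 RPKM with the median coding transcript length, a setting added after seeing the data.

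Of 872 single values under alternatives, 18 had the opposite sign to the value reported, none of them called. With no low-count filter TDO2 with TCDD was at -0.0043. With a library left out, the log2 fold changes with TCDD ranged from -0.068 to 0.13 for AADAT, -0.21 to 0.32 for KMO, -0.36 to 0.43 for MAOA and -0.19 to 0.35 for TDO2. With kynurenine they ranged from -0.16 to 0.040 for AADAT and -0.074 to 0.72 for MAOA. Between TCDD and kynurenine they ranged from -0.090 to 0.018 for AFMID and -0.0040 to 0.53 for KMO, and between kynurenine and CH223191 from -0.45 to 0.16 for IL4I1. Over all genes, the calls with TCDD against DMSO numbered 1599, against 805 without TCDD replicate 3, 851 without DMSO replicate 1 and 1020 without DMSO replicate 3. Those with kynurenine against DMSO numbered 40, against 65 with no low-count filter and 26 in the fit of the pair alone. Those between TCDD and kynurenine numbered 1252, against 576 without TCDD replicate 3 and 658 without kynurenine replicate 1. Depth limits the 5 tested genes under 1 CPM, which rest on 3 to 43 reads per library. The untested HAAO had 0 to 6 and IDO1 0 to 1 reads per library.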
